A study of Mus musculus with 14 samples.

Results

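Lysosomes break down proteins, sugars, glycosaminoglycans and lipids, and 43 listed mouse genes that make up a large share of that machinery were followed here in 3T3-L1 cells. The list held 13 cathepsins and other peptidases, 15 glycosidases and sulfatases, 7 lipid enzymes and lipid carriers, 7 lysosomal membrane proteins, and progranulin. Members were taken by gene name from the list, and the list itself was drawn up with earlier results of these data known. Of the 43 genes, 42 were measured among 18193 genes with a named probe set. Cd63, a membrane protein of late endosomes and lysosomes, was not matched to a probe set and is not analysed here. Each gene was represented by the probe set, named for that gene alone, with the highest mean over the 14 arrays.

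3T3-L1 is a mouse fibroblast line, labelled as derived from adipose tissue, that turns into fat-storing cells under differentiation medium. All cells carried a lentivirus. Control cells received a scrambled siRNA sequence, and knockdown cells (labelled KD TP53INP2) a sequence against TP53INP2, whose protein acts in autophagosome formation. RNA was taken from preadipocytes at day 0 of differentiation, with 3 arrays per group, and from cells at day 7, with 4 arrays per group. The labels number the replicates but do not call them separate cultures. The p-values thus reflect the variation among these arrays alone, which could be technical. A lasting difference between the virus-carrying populations cannot be told apart from the knockdown.

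Most soluble lysosomal enzymes are made in the endoplasmic reticulum, tagged with mannose 6-phosphate in the Golgi apparatus, and delivered to lysosomes by mannose 6-phosphate receptors. Proton-pumping v-ATPase complexes keep the lumen acidic, as the hydrolases require. The transcription factors TFEB, TFE3 and MITF raise many lysosomal genes together by binding E-box elements with the core CACGTG, often within a longer palindrome called the CLEAR element. In fat cells, lysosomes receive material from autophagy and take part in lipid turnover, with lysosomal acid lipase hydrolysing cholesteryl esters and triglycerides.

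Levels are RMA values on the log2 scale, on which a change of 1 is a doubling. A gene was called changed when its Benjamini-Hochberg adjusted p in a limma model over all 18193 genes was under 0.05. Counts at an unadjusted p under 0.05 are given without the share of all genes at that threshold, so no excess is read from them. Array medians lay between 5.44 and 5.57. The targeted gene, Trp53inp2, fell to 44.4% of control at day 0 and to 33.7% at day 7 (adjusted p = 0.00205 and 0.000111). Replicates 1 and 2 were the most alike arrays of their groups, and their difference over the 42 members had an SD of 0.11 in day 7 controls. The knockdown array numbered 3 at day 7 stood apart. Its mean over the 42 members was 10.12, against 9.78, 9.76 and 9.69 on the other knockdown arrays and 10.02, 10.01, 10.19 and 10.14 on the controls. The day 7 counts, and the differences of the members it touches most, are given with and without it.

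RefSeq promoters (assembly GRCm38.p6, from 250 bases before to 50 after a gene's start) were found for 39 of the 43 members; Ctsb, Ctsh, Galns and Asah1 had no entry. The motif CACGTG, which reads the same on both strands, stood in 13 of the 39 promoters (33.3%), against 8.09% of the 27025 genes in the table. The longer TCACGTG, searched on both strands and containing the same core, stood in 11 (28.2%, against 4.29%). The full CLEAR palindrome, which is TCACGTG with G before it and AC after it, stood in 1 member, Cln3 (2.56%, against 0.37%). The pieces below show the only member with the full palindrome, the member with 4 copies of the core, the glycosidase with the smallest adjusted p with knockdown, and a cathepsin with 2 copies. Each runs 5′ to 3′ on the gene's strand, lies before the start, and has the CACGTG core in capitals. They lie at chr7:126583332-126583405 (Cln3, minus strand), chr8:13159080-13159160 (Lamp1, plus strand), chr11:119267803-119267848 (Gaa, plus strand) and chr7:142387900-142388077 (Ctsd, minus strand).
Cln3: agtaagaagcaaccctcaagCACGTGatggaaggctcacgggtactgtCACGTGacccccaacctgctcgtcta
Lamp1: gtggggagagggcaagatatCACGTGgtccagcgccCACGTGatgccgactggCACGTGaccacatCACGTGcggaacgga
Gaa: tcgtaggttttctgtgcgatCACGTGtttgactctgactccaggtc
Ctsd: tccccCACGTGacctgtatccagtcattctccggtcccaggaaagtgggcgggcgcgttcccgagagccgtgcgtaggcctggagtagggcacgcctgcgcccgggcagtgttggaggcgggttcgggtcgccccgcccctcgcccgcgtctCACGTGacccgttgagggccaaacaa

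The cores lie 121 and 149 bases before the Cln3 start, 140 before that of Gaa, and between 15 and 61 before that of Lamp1. In Ctsd they lie 98 and 245 bases before it. A match describes these letters only and is not evidence of binding. The levels of the members with and without the core are given with the differentiation results.

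In control cells, most lysosomal genes were lower at day 7 of differentiation than at day 0. Of the 42 members 29 fell and 2 rose, Ctsc and Idua. Over all genes 22.9% were called in this comparison, 12.8% in the downward direction. The median change of the members was -0.64 on the log2 scale, against -0.01 over all genes, and 40 of the 42 values lay below 0. Of the falls, 10 were at least 2-fold. Peptidases had a median of -1.02, with 10 of 13 lower and 1 higher. Glycosidases and sulfatases had a median of -0.75, with 10 of 15 lower and 1 higher. Of the 7 lipid genes 5 fell (median -0.49), and of the 6 measured membrane proteins 3 fell (median -0.32). When the closely alike replicates 1 and 2 were averaged and counted as 1, 15 members were called (14 lower), along with 8.71% of all genes. The 3′ minus 5′ signal of Gapdh, a measure of RNA quality, was 2.02 to 2.43 in day 0 controls and 1.24 to 1.79 in day 7 controls, without overlap. That of beta-actin overlapped (3.32 to 3.76 and 2.82 to 3.48), and the part of RNA quality in the falls was not tested. Bulk RNA cannot tell fewer cells of a type from less RNA per cell.

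The same comparison in knockdown cells, day 7 against day 0, called 37 members lower and 1 higher, with a median change of -0.83. Over all genes 35.8% were called there, 16.8% in the downward direction. Falls of at least 2-fold numbered 17. Peptidases were lower in 11 of 13, glycosidases and sulfatases in 13 of 15, lipid genes in 7 of 7, and membrane proteins in 5 of 6. The 29 members that fell in control cells all fell in knockdown cells. By the probe sets used, a further 8 passed the test in knockdown cells alone (Ctso, Gla, Man2b1, Ids, Smpd1, Npc2, Lamp2 and Laptm4a), and 3 passed in neither (Ctsh, Gusb and Cln3). When every probe set was tested, dimmer ones of Gla, Lamp2 and Npc2 fell in control cells too (-1.55, -1.13 and -0.82, adjusted p = 0.00155, 0.00147 and 0.00225). Other probe sets of Ctso, Man2b1, Ids and Smpd1 did not pass there. A dimmer Ctsh probe set fell in control cells (-1.63, adjusted p = 0.00336), and a dimmer Gusb one rose in knockdown cells (1.13, adjusted p = 0.00115). Passing in one population alone does not show that the populations differed, which is the comparison of knockdown effects given further on.

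**Figure D1:**
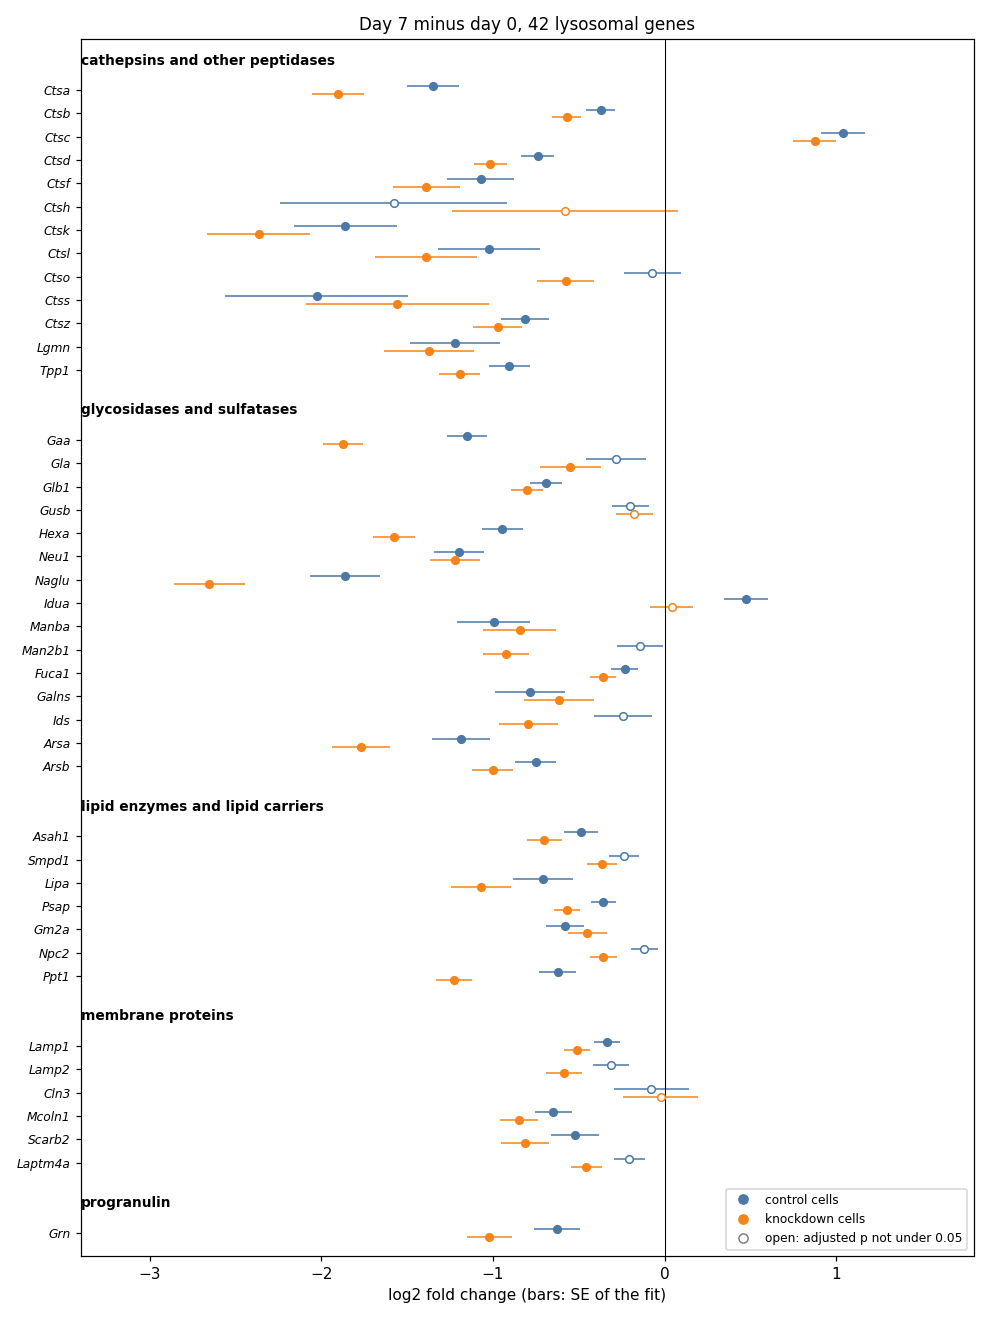
Log2 change from day 0 to day 7 for each of the 42 measured members, with bars for the standard error and filled symbols for an adjusted p under 0.05, in control and in knockdown cells. Nearly all points lie left of 0 in both populations; Ctsc is called higher in both, and Idua in control cells.

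Knockdown and control cells were then compared on each day. At day 0 the test called 1 of the 42 members, Idua, against 1.8% of all genes (0.467% higher and 1.34% lower), a share near that background. The members' median was 0.05, against -0.05 over all genes. Knockdown arrays lay wholly above the controls for 10 members and wholly below them for 4; over all genes these shares were 6.89% and 15.7%.

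At day 7 the test called 9 of the 42 members, where 6.58% of all genes were called. Of these, 8 were lower with knockdown (3.57% of all genes): the peptidases Ctsf, Ctso and Tpp1, the glycosidases Gaa and Man2b1, the lipid enzymes Lipa and Ppt1, and progranulin (Grn). The lipid-transfer protein Gm2a was the 1 member higher (3.01% of all genes). The median over the members was -0.21, against -0.02 over all genes, and 32 of the 42 values lay below 0 (76.19%, against 52.93% of all genes). Knockdown arrays lay wholly below the controls for 9 members and wholly above them for 1, against 6.96% and 6.02% of all genes. These comparisons and the differentiation comparisons share arrays, so their values are set side by side for each gene and no relation between them is drawn.

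The count of 9 moved with single arrays, and so did the share of all genes called. It was 19, of which 18 were lower, without the knockdown array numbered 3, where 15.9% of all genes were called. Without knockdown replicate 1, 2 or 4 it was 2 in each case, beside 2.03%, 2.07% and 2.53% of all genes. Without control replicates 1 to 4 it was 5, 6, 6 and 4, beside 3.92%, 4.76%, 3.25% and 3.07%. No member was called when replicates 1 and 2 were averaged, a setting in which 0.352% of all genes were called. With only the day 7 arrays in the model, 2 members were called, Gaa and Ctsf, beside 1.83% of all genes. With replicate number as a block, 13 were called, 8 of them shared with the count of 9, and 14.7% of all genes were called. Tpp1 dropped out there (adjusted p = 0.0518), and Ctsh, Hexa, Naglu, Ids and Lamp2 were called as well.

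**Figure D2:**
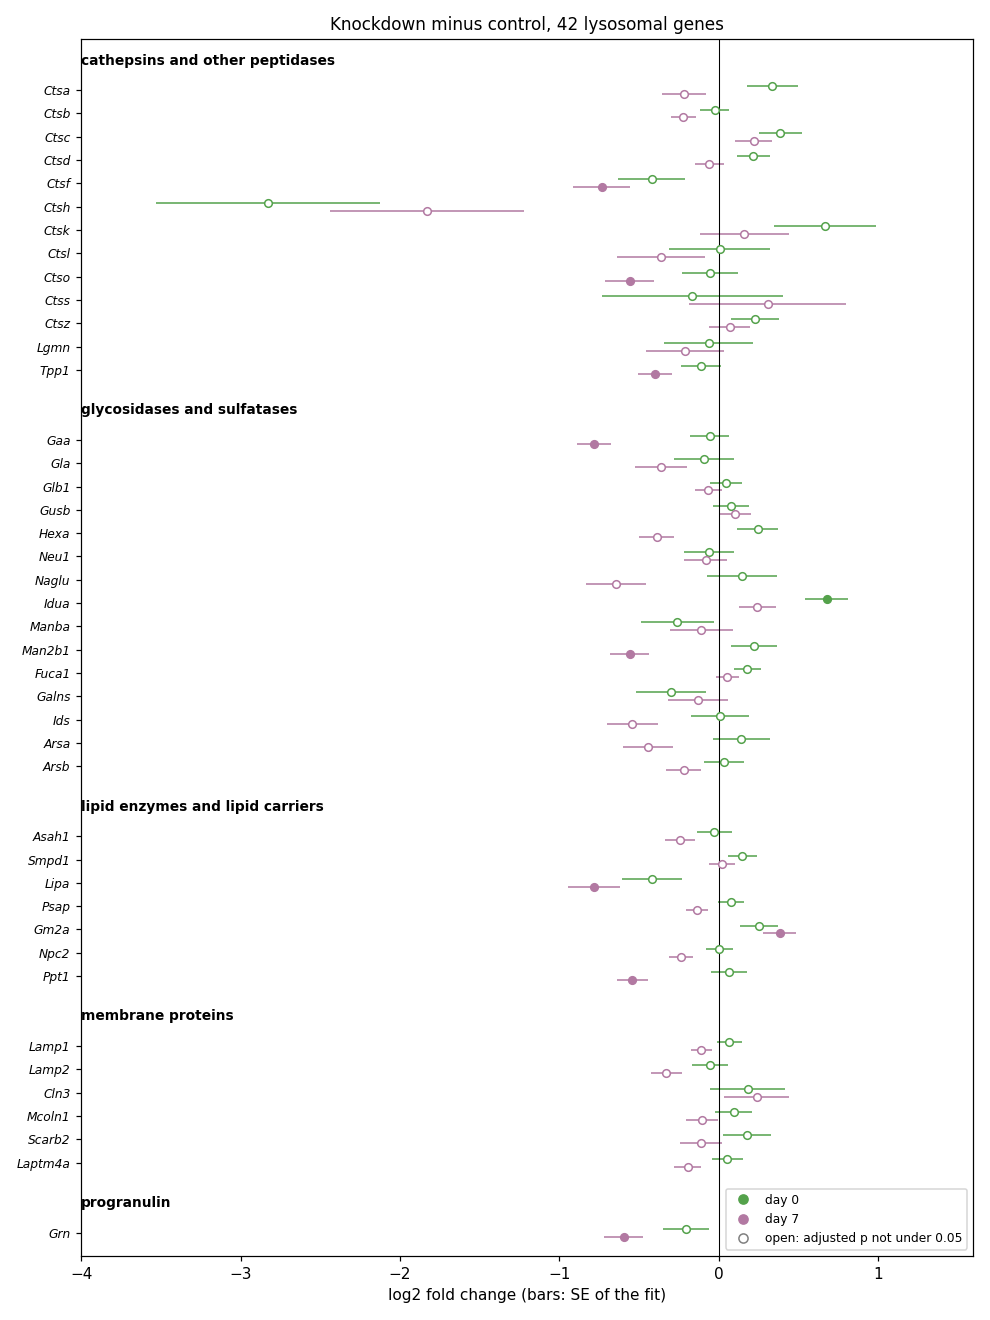
Log2 difference between knockdown and control cells for each of the 42 measured members, with bars for the standard error and filled symbols for an adjusted p under 0.05, at day 0 and at day 7. Points at day 0 scatter around a median of 0.05, while at day 7 most lie below 0 with a median of -0.21.

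The glycosidases and sulfatases held the change with the smallest adjusted p at day 7 among the members. Gaa, acid alpha-glucosidase, which breaks down glycogen in lysosomes, stood at 12.96, 12.90 and 12.87 on the day 0 control arrays and at 12.93, 12.81 and 12.82 on the knockdown arrays. At day 7 Gaa read 11.75, 11.67, 11.84 and 11.77 in controls and 10.86, 10.81, 11.34 and 10.91 in knockdown cells. All 4 knockdown arrays lay below all 4 controls, and the array numbered 3 was the highest of them. The day 7 difference was -0.78 ± 0.11 (SE), or 58.3% of the control level, with a 95% interval from -1.01 to -0.55 (adjusted p = 0.00181). It was called with any 1 of the 8 day 7 arrays left out, over a range of -0.90 to -0.72, and a second Gaa probe set gave -0.77. At day 0 the difference was -0.06 ± 0.12 (adjusted p = 0.894). The change of Gaa with differentiation was -1.15 ± 0.12 in control cells and -1.87 ± 0.12 in knockdown cells (adjusted p = 3.12e-05 and 5.20e-07).

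Man2b1, lysosomal alpha-mannosidase, read 10.60, 10.57 and 10.43 in controls at day 0 and 10.73, 10.79 and 10.75 in knockdown cells. At day 7 Man2b1 read 10.25, 10.30, 10.39 and 10.61 in controls and 9.68, 9.75, 10.23 and 9.65 in knockdown cells, where the array numbered 3 came within 0.1 of the lowest control. The groups did not overlap at day 7, and the difference was -0.56 ± 0.12 (67.9% of control, adjusted p = 0.0238), against 0.22 ± 0.14 at day 0 (adjusted p = 0.516). The call was lost without control replicate 3 or 4 or knockdown replicate 1, 2 or 4 (adjusted p from 0.0532 to 0.0813). Without knockdown array 3 the difference was -0.69 (adjusted p = 0.00104). A second, dimmer Man2b1 probe set gave -0.45 at day 7. When every probe set was tested it did not pass (adjusted p = 0.219), and the brighter one did (0.0359). The call was also lost with the most variable probe set and with only the groups compared. Man2b1 did not pass the test in differentiation of control cells (-0.15, adjusted p = 0.518) and fell in knockdown cells (-0.93, adjusted p = 1.62e-04).

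Naglu, which removes N-acetylglucosamine from heparan sulfate, was among the members that fell most with differentiation. Naglu measured 10.92, 11.01 and 10.69 in controls at day 0 and 11.08, 11.32 and 10.67 in knockdown cells. At day 7 Naglu measured 8.80, 8.78, 9.33 and 9.14 in controls and 8.19, 8.24, 8.87 and 8.18 in knockdown cells, with knockdown array 3 above control arrays 1 and 2. The fall over 7 days was -1.86 ± 0.20 in control cells and -2.65 ± 0.20 in knockdown cells (adjusted p = 5.19e-05 and 1.77e-06). Its knockdown difference at day 7, -0.64 ± 0.19, did not pass the test (adjusted p = 0.0609; 0.00858 with the replicate block), and was -0.81 without knockdown array 3 (adjusted p = 0.00875).

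Idua, which cuts iduronic acid from glycosaminoglycans, was the 1 member called at day 0. Idua stood at 10.09, 10.45 and 10.10 on the day 0 control arrays and at 10.97, 11.04 and 10.68 on the knockdown arrays, with every knockdown array above every control. The difference was 0.68 ± 0.14 (160% of control, adjusted p = 0.0277). At day 7 Idua read 10.58, 10.74, 10.57 and 10.88 in controls and 10.93, 10.82, 10.87 and 11.11 in knockdown cells, a difference of 0.24 ± 0.12 that did not pass the test (adjusted p = 0.237). When other settings called 1 member at day 0, it was not always Idua: the most variable probe set of each gene gave Fuca1 (0.68, adjusted p = 0.0494), and the mean over probe sets and a model of the day 0 arrays alone each gave Ctsh, lower (adjusted p = 0.0197 and 0.0303). The day 0 call of Idua was lost without control replicate 1 or 3 or knockdown replicate 1 or 2 (adjusted p from 0.0910 to 0.122). A second, dimmer Idua probe set gave 0.22 at day 0. In differentiation of control cells the brighter probe set rose (0.48, adjusted p = 0.0167), whereas the dimmer one gave -0.86. The 3′ minus 5′ signals of beta-actin and Gapdh also parted the day 0 groups. Beta-actin was at 3.32 to 3.76 in controls and 2.74 to 3.23 in knockdown cells, Gapdh at 2.02 to 2.43 and 1.59 to 1.90, and their part in the result was not tested.

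Neu1, Manba and Galns fell with differentiation of control cells and did not pass the test with knockdown on either day. Neu1, a sialidase, measured 8.71, 8.96 and 8.60 in controls and 8.62, 8.80 and 8.67 in knockdown cells at day 0. At day 7 Neu1 measured 7.63, 7.75, 7.58 and 7.28 in controls and 7.46, 7.71, 7.59 and 7.15 in knockdown cells. Every day 7 array lay below every day 0 array, and knockdown and control arrays overlapped on both days. Its change was -1.20 ± 0.15 in control cells and -1.22 ± 0.15 in knockdown cells (adjusted p = 1.10e-04 and 3.69e-05).

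Manba, beta-mannosidase, measured 8.19, 8.24 and 7.85 in controls at day 0 and 7.74, 7.72 and 8.04 in knockdown cells. At day 7 Manba measured 7.44, 7.30, 6.52 and 7.12 in controls and 6.78, 7.08, 6.73 and 7.36 in knockdown cells. Knockdown and control arrays overlapped on both days (day 0 -0.26 ± 0.23, day 7 -0.11 ± 0.20, adjusted p = 0.659 and 0.804), and differentiation of control cells gave -0.997 ± 0.21 (adjusted p = 0.00485). Galns, a sulfatase of keratan sulfate and chondroitin sulfate, measured 8.40, 8.68 and 8.49 in controls at day 0 and 8.37, 8.18 and 8.12 in knockdown cells. At day 7 Galns measured 7.47, 7.56, 8.21 and 7.71 in controls and 7.55, 7.57, 8.10 and 7.20 in knockdown cells. All day 0 knockdown arrays lay below the controls, with a difference of -0.30 ± 0.22 (adjusted p = 0.573), and at day 7 the groups overlapped. Its differentiation change in control cells was -0.78 ± 0.20 (adjusted p = 0.0144).

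The other 8 members of this class were Gla, Glb1, Gusb, Hexa, Fuca1, Ids, Arsa and Arsb. Their knockdown differences ran from -0.09 (Gla) to 0.24 (Hexa) at day 0 and from -0.54 (Ids) to 0.10 (Gusb) at day 7, and none passed the test. Dimmer probe sets of Gusb and Fuca1 did pass when every probe set was tested, all higher with knockdown: Gusb 0.925 at day 7 (adjusted p = 0.0257), and Fuca1 0.68 at day 0 (adjusted p = 0.0411) and 0.56 at day 7 (0.0443). In differentiation of control cells, the steepest fall among them was that of Arsa, arylsulfatase A, which acts on sulfatide (-1.19 ± 0.17, adjusted p = 3.16e-04), followed by Hexa, the alpha subunit of beta-hexosaminidase A (-0.94 ± 0.12, adjusted p = 1.60e-04). Glb1 (beta-galactosidase) and Arsb fell as well, and Fuca1 passed narrowly (-0.23 ± 0.08, adjusted p = 0.046), while Gla, Gusb and Ids did not pass the test. A dimmer Gla probe set did fall (-1.55, adjusted p = 0.00155 over every probe set). Averaging over the probe sets of Arsb left no fall (0.02, adjusted p = 0.958).

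Among the peptidases, Ctsf, Ctso and Tpp1 were lower with knockdown at day 7. Ctsf, the cysteine protease cathepsin F, measured 6.67, 6.79 and 6.05 in controls at day 0 and 6.44, 6.09 and 5.72 in knockdown cells, groups that overlapped. At day 7 Ctsf measured 5.28, 5.28, 5.65 and 5.52 in controls and 4.81, 4.74, 4.47 and 4.77 in knockdown cells, with all knockdown arrays lower. The differences were -0.42 ± 0.21 at day 0 (adjusted p = 0.37) and -0.73 ± 0.18 at day 7 (60.1% of control, adjusted p = 0.0339). The day 7 call was lost without control replicate 1, 3 or 4 or knockdown replicate 1, 2 or 4 (adjusted p from 0.0524 to 0.0893), and a second probe set had the opposite sign. Ctsf fell with differentiation in control cells (-1.07, adjusted p = 0.00184) and in knockdown cells (-1.39, adjusted p = 1.31e-04).

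Ctso, cathepsin O, measured 9.97, 9.87 and 9.63 in controls at day 0 and 9.96, 9.82 and 9.52 in knockdown cells. At day 7 Ctso measured 9.76, 9.74, 9.46 and 10.03 in controls and 8.86, 9.19, 9.25 and 9.46 in knockdown cells. The day 7 groups did not overlap, but only narrowly: the highest knockdown array read 9.457 and the lowest control 9.461. The day 7 difference was -0.56 ± 0.15 (67.9% of control, adjusted p = 0.0487), and it was lost without control replicate 1, 2 or 4 or knockdown replicate 1, 2 or 4 (adjusted p from 0.0549 to 0.144). When every probe set was tested, a dimmer Ctso probe set passed (-0.69, adjusted p = 0.0277) and the brighter one did not (adjusted p = 0.0683). Tpp1, tripeptidyl peptidase 1, measured 12.75, 12.65 and 12.58 in controls at day 0 and 12.53, 12.50 and 12.62 in knockdown cells. At day 7 Tpp1 measured 11.81, 11.75, 11.71 and 11.75 in controls and 11.29, 11.22, 11.73 and 11.19 in knockdown cells; 3 knockdown arrays lay below the controls and the array numbered 3 lay among them. The difference was -0.40 ± 0.11 (75.8% of control, adjusted p = 0.0487), and it was lost with any 1 array left out (adjusted p from 0.0806 to 0.145) other than knockdown array 3, without which it was -0.52 (adjusted p = 0.00122). A second Tpp1 probe set gave -0.21, and neither passed when every probe set was tested (adjusted p = 0.170, and 0.0732 for the brighter one). In control differentiation Tpp1 fell (-0.91, adjusted p = 1.77e-04) while Ctso gave -0.07 (adjusted p = 0.819).

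Ctsh, cathepsin H, an aminopeptidase, had the largest knockdown differences of all members on both days, with wide spread. Ctsh measured 7.72, 7.66 and 7.01 in controls at day 0 and 5.32, 4.73 and 3.85 in knockdown cells, so that every knockdown array was lower. At day 7 Ctsh measured 6.08, 5.84, 6.33 and 5.27 in controls and 5.49, 3.60, 5.06 and 2.05 in knockdown cells, where replicate 1 exceeded the lowest control. The differences were -2.83 ± 0.71 at day 0 and -1.83 ± 0.61 at day 7, and neither passed the test (adjusted p = 0.0655 and 0.0894). With the replicate block both passed (adjusted p = 0.0165 and 0.0193). A second Ctsh probe set gave -2.40 at day 0 and -1.20 at day 7, and passed on both days when every probe set was tested (adjusted p = 0.00368 and 0.0430). Without knockdown array 3 the day 7 difference of the brighter probe set was -2.17 (adjusted p = 0.0393).

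Ctsk and Ctss, cathepsins known for collagen breakdown by osteoclasts and for antigen processing, had the steepest falls of their class in control differentiation. Ctsk measured 8.82, 8.97 and 8.59 in controls at day 0 and 9.57, 9.59 and 9.23 in knockdown cells, all of the latter higher (0.67 ± 0.32, adjusted p = 0.347). At day 7 Ctsk measured 7.02, 6.98, 6.91 and 6.83 in controls and 7.07, 7.12, 8.02 and 6.17 in knockdown cells, whose array 3 was the highest and array 4 the lowest. Its change over 7 days was -1.86 ± 0.30 in control cells (adjusted p = 8.10e-04) and -2.37 ± 0.30 in knockdown cells (adjusted p = 5.97e-05). Ctss, near the bottom of the scale, measured 4.79, 5.73 and 4.65 in controls at day 0 and 4.34, 4.98 and 5.37 in knockdown cells. At day 7 Ctss measured 2.68, 2.23, 4.34 and 2.87 in controls and 2.66, 2.84, 4.61 and 3.25 in knockdown cells. Its change was -2.03 ± 0.53 in control cells (adjusted p = 0.0153) and -1.56 ± 0.53 in knockdown cells (adjusted p = 0.0369), and arrays numbered 3 were the highest on day 7 in both groups. Of markers of other cells, 0 of 12 macrophage, 0 of 6 osteoclast and 0 of 6 endothelial markers were called with knockdown on either day by limma; 1 macrophage and 2 endothelial markers had an unadjusted p under 0.05 at day 0, and none did at day 7. The mean over the macrophage markers lay low on the scale at day 7, between 3.97 and 4.46 in controls and between 3.92 and 4.39 in knockdown cells.

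The other 7 peptidases were Ctsa, Ctsb, Ctsc, Ctsd, Ctsl, Ctsz and Lgmn. Their knockdown differences lay between -0.06 and 0.39 at day 0 and between -0.36 (Ctsl) and 0.22 (Ctsc) at day 7, and none passed the test. Ctsc, which activates granule serine proteases, rose in differentiation in both populations (1.04 ± 0.13 in control and 0.87 ± 0.13 in knockdown cells, adjusted p = 1.15e-04 and 1.63e-04). The other 6 fell in both. Ctsa, the protective protein that shields beta-galactosidase and neuraminidase, fell furthest (-1.35 ± 0.15 in control cells, adjusted p = 5.58e-05). Ctsb, a major lysosomal cysteine protease, fell least by the probe set used (-0.37 ± 0.08, adjusted p = 0.00693), so its rank depends on that choice. Its dimmer probe sets with means of 9.49, 9.18 and 8.76 gave -1.09, -1.26 and -1.52, and the dimmest (mean 3.25) gave 0.05.

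**Figure D3:**
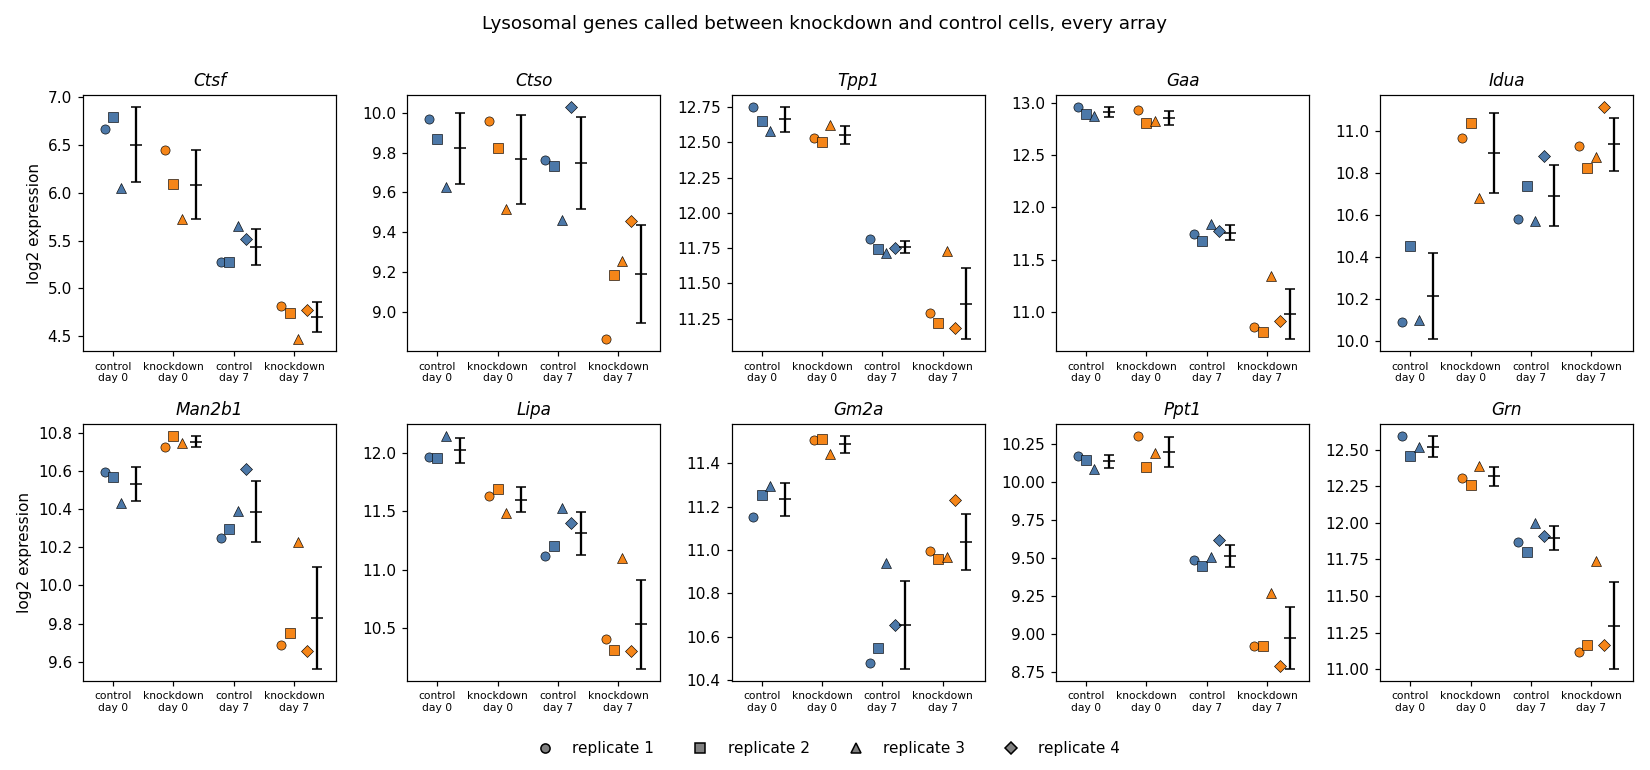
Log2 level of the members called with knockdown on either day, on each array, by group, with bars for the mean ± SD of 3 arrays at day 0 and 4 at day 7 and symbol shapes for the replicate number. For Gaa every day 7 knockdown array lies below every control, and in 6 of the 8 members that were lower at day 7 the knockdown array numbered 3 is the highest of its group.

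Among the lipid genes, Lipa and Ppt1 were lower and Gm2a was higher with knockdown at day 7. Lipa, lysosomal acid lipase, measured 11.96, 11.96 and 12.14 in controls at day 0 and 11.63, 11.69 and 11.48 in knockdown cells. At day 7 Lipa measured 11.11, 11.21, 11.52 and 11.40 in controls and 10.41, 10.31, 11.10 and 10.30 in knockdown cells. Knockdown arrays were lower than controls on both days without overlap, though the highest knockdown array at day 7, number 3, came close to the lowest control. The differences were -0.42 ± 0.19 at day 0 (adjusted p = 0.304) and -0.78 ± 0.16 at day 7 (58.2% of control, adjusted p = 0.0177). All 3 Lipa probe sets gave day 7 values between -0.83 and -0.78. The call was lost without knockdown replicate 1, 2 or 4 (adjusted p from 0.0564 to 0.0658), and without knockdown array 3 the difference was -0.97 (adjusted p = 3.70e-04). Lipa fell with differentiation of control cells (-0.71, adjusted p = 0.011).

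Ppt1, palmitoyl-protein thioesterase 1, which removes fatty acids from proteins, measured 10.18, 10.15 and 10.09 in controls at day 0 and 10.30, 10.10 and 10.19 in knockdown cells, which overlapped. At day 7 Ppt1 measured 9.49, 9.45, 9.51 and 9.62 in controls and 8.92, 8.92, 9.27 and 8.79 in knockdown cells, all of them lower. The differences were 0.06 ± 0.11 at day 0 (adjusted p = 0.858) and -0.54 ± 0.10 at day 7 (68.8% of control, adjusted p = 0.00955). The day 7 call held with any 1 of the 8 day 7 arrays left out (-0.64 to -0.48). Of 4 other Ppt1 probe sets, 2 had the same sign and 3 gave less than 50% of this change. Averaged over its probe sets, Ppt1 was not called.

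Gm2a, the activator protein that presents ganglioside GM2 for hydrolysis, ran the other way. Gm2a measured 11.15, 11.25 and 11.30 in controls at day 0 and 11.51, 11.51 and 11.44 in knockdown cells. At day 7 Gm2a measured 10.48, 10.54, 10.94 and 10.65 in controls and 10.998, 10.96, 10.97 and 11.23 in knockdown cells. All knockdown arrays were higher on both days, by 0.25 ± 0.12 at day 0 (adjusted p = 0.331) and 0.38 ± 0.10 at day 7 (130% of control, adjusted p = 0.0458). The day 7 call was lost without control replicate 1, 2 or 4 or knockdown replicate 1, 2 or 4 (adjusted p from 0.0955 to 0.125). It was lost too when the arrays were quantile normalized again or shifted to 1 median (adjusted p = 0.0587 and 0.0669). The other Gm2a probe sets gave 0.09 and 0.52 at day 7 (adjusted p = 0.876 and 0.0545 over every probe set). Gm2a fell with differentiation of control cells (-0.58, adjusted p = 0.00257).

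Smpd1, acid sphingomyelinase, measured 11.12, 11.07 and 10.99 in controls at day 0 and 11.25, 11.19 and 11.18 in knockdown cells. At day 7 Smpd1 measured 10.91, 10.97, 10.72 and 10.68 in controls and 10.91, 10.87, 10.82 and 10.77 in knockdown cells. Day 0 knockdown arrays were all higher and day 7 arrays overlapped, with differences of 0.15 ± 0.09 and 0.02 ± 0.08 that did not pass the test (adjusted p = 0.491 and 0.923). The other lipid genes were Asah1 (acid ceramidase), Psap (the precursor of the saposins) and Npc2 (a cholesterol carrier). Their day 7 knockdown differences were -0.24, -0.13 and -0.23, with adjusted p of 0.141, 0.266 and 0.076. Asah1 and Psap fell with differentiation of control cells, and Npc2 did not pass the test there. A dimmer Npc2 probe set did fall (-0.82, adjusted p = 0.00225 over every probe set).

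No membrane protein was called with knockdown on either day by limma; 2 of the 6 had an unadjusted p under 0.05 at day 7 and none did at day 0. Lamp2, a major glycoprotein of the lysosomal membrane, measured 12.76, 12.67 and 12.79 in controls at day 0 and 12.74, 12.61 and 12.72 in knockdown cells. At day 7 Lamp2 measured 12.34, 12.28, 12.56 and 12.54 in controls and 12.005, 11.96, 12.33 and 12.12 in knockdown cells, where array 3 exceeded the lowest control. The day 7 difference was -0.33 ± 0.10 (95% interval -0.54 to -0.12, adjusted p = 0.0645, and 0.0189 with the replicate block). Without knockdown array 3 it was -0.40 (adjusted p = 0.0132). Lamp2 fell with differentiation of knockdown cells (-0.59, adjusted p = 7.53e-04).

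Mcoln1, the calcium channel mucolipin 1, measured 10.69, 10.90 and 10.85 in controls at day 0 and 10.87, 11.04 and 10.80 in knockdown cells. At day 7 Mcoln1 measured 10.08, 10.22, 10.07 and 10.27 in controls and 10.11, 9.99, 10.27 and 9.86 in knockdown cells. It fell in differentiation of control cells (-0.65, adjusted p = 0.00104), and knockdown and control arrays overlapped on both days. Scarb2, the receptor that carries glucocerebrosidase to lysosomes, measured 12.06, 12.20 and 11.90 in controls at day 0 and 12.29, 11.93 and 12.49 in knockdown cells. At day 7 Scarb2 measured 11.67, 11.51, 11.25 and 11.69 in controls and 11.33, 11.44, 11.54 and 11.37 in knockdown cells. It also fell in control cells (-0.52, adjusted p = 0.0174), with overlap between knockdown and control on both days. With knockdown at day 7 this probe set gave -0.11 and a dimmer one 0.545 (adjusted p = 0.738 and 0.0763 over every probe set). In control differentiation the dimmer one gave -0.32 and did not pass (adjusted p = 0.244).

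Laptm4a, a small transmembrane protein, measured 12.11, 12.21 and 12.24 in controls at day 0 and 12.18, 12.19 and 12.35 in knockdown cells. At day 7 Laptm4a measured 11.84, 11.89, 12.07 and 12.10 in controls and 11.76, 11.75, 11.90 and 11.73 in knockdown cells. Its day 7 difference was -0.19 ± 0.08 (adjusted p = 0.179), with knockdown array 3 inside the control range. Cln3, mutated in juvenile Batten disease, read low, at 3.62, 3.91 and 4.69 in controls at day 0 and 4.18, 4.28 and 4.31 in knockdown cells. At day 7 Cln3 measured 3.74, 3.93, 3.97 and 4.34 in controls and 4.13, 3.97, 4.39 and 4.44 in knockdown cells. Its groups overlapped and it passed the test in no comparison (day 7 knockdown 0.24 ± 0.20, adjusted p = 0.537). Lamp1, the remaining membrane protein, gave -0.11 at day 7 (adjusted p = 0.385) and fell with differentiation of control cells (-0.34, adjusted p = 0.00572).

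Grn, progranulin, a secreted and lysosomal protein cut into granulins, measured 12.59, 12.46 and 12.52 in controls at day 0 and 12.30, 12.26 and 12.39 in knockdown cells. At day 7 Grn measured 11.87, 11.80, 11.996 and 11.91 in controls and 11.12, 11.16, 11.74 and 11.17 in knockdown cells. Knockdown arrays were lower on both days without overlap, and array 3 was the highest of them at day 7. The differences were -0.20 ± 0.14 at day 0 (adjusted p = 0.556) and -0.60 ± 0.12 at day 7 (66.1% of control, adjusted p = 0.017). The day 7 call was lost without knockdown replicate 1, 2 or 4 (adjusted p from 0.0546 to 0.0636), and without knockdown array 3 the difference was -0.74 (adjusted p = 2.29e-04). Grn fell with differentiation of control cells (-0.63, adjusted p = 0.00456).

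Whether the knockdown effect itself differed between days was tested directly. No member was called in this comparison by limma, where 0.022% of all genes were called (0.0055% more negative at day 7), and 9 of the 42 had an unadjusted p under 0.05. All 9 were more negative at day 7, but the share of all genes with such a p is not given here. Of the 42 members 35 had a negative value (83.33%, against 44.37% of all genes), with a median of -0.25 against 0.04 over all genes. Gaa had -0.72 ± 0.16 (95% interval -1.08 to -0.37, adjusted p = 0.111), Man2b1 -0.78 ± 0.19 (0.131), Ppt1 -0.60 ± 0.15 (0.138) and Hexa -0.63 ± 0.17 (0.167). Without the knockdown array numbered 3 at day 7, 5 members were called, all more negative at day 7: Gaa (-0.84, adjusted p = 0.0138), Man2b1 (-0.91, 0.0215), Ppt1 (-0.70, 0.0249), Ids (-0.74, 0.0391) and Grn (-0.54, 0.0396). That setting called 1.74% of all genes. Without both day 7 arrays numbered 3, the count was 5 as well, beside 1.46% of all genes.

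Taking arrays of the same number together, the median member difference between knockdown and control was 0.08, -0.04 and 0.09 in the 3 day 0 pairs. In the 4 day 7 pairs it was -0.24, -0.18, -0.04 and -0.42. The third pair at day 7 was thus the closest to 0, with 22 of 42 members below 0 against 33, 33 and 34 in the others. At day 7, 21 members were lower in every pair and 3 were higher in every pair; over all genes these shares were 19.7% and 19.4%. At day 0 the counts were 8 and 14, against 28% and 15% of all genes.

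**Figure D4:**
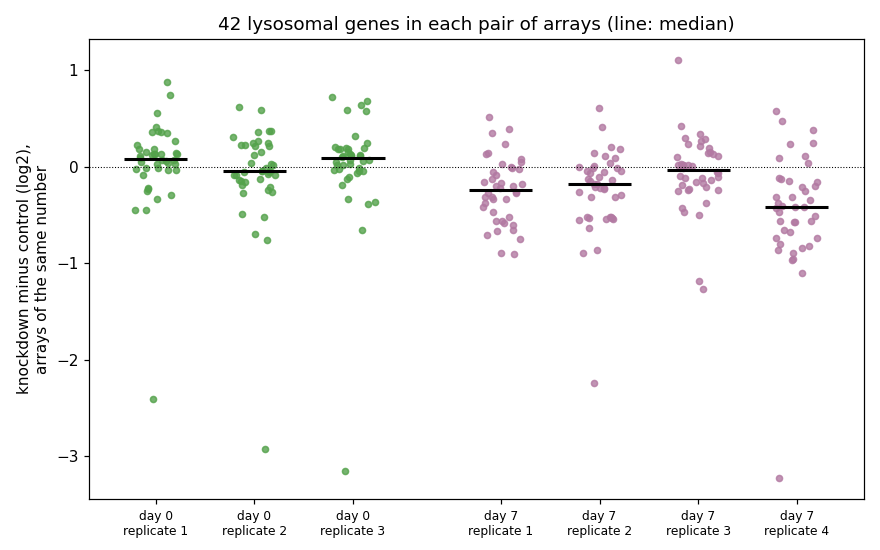
Log2 difference between the knockdown and the control array of the same replicate number, for each of the 42 measured members (points) with the median as a line, in 3 pairs at day 0 and 4 at day 7. Day 0 medians lie between -0.04 and 0.09, and day 7 medians between -0.42 and -0.04.

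Mean levels of cell state markers are set beside these values, with no relation computed. At day 7 the mean level of 8 preadipocyte and fibroblast markers was 11.26, 11.22, 11.49 and 11.38 in controls and 10.68, 10.76, 11.39 and 10.67 in knockdown cells. The mean of 11 mature adipocyte markers was 9.97, 10.06, 8.83 and 9.003 in controls and 10.42, 10.36, 9.64 and 10.48 in knockdown cells. In both day 7 groups the array numbered 3 had the lowest adipocyte marker mean, the highest fibroblast marker mean and the highest mean over the lysosomal genes. Day 0 arrays numbered 3 read otherwise. They had the lowest adipocyte marker means of their groups (6.44 in controls, 6.68 in knockdown cells). Their fibroblast marker means (11.63 and 11.64) and lysosomal means (10.68 and 10.69) were the lowest as well. Of the fibroblast markers 2 of 8 were called lower with knockdown at day 7 (Pdgfra and Col3a1). Of these 8 markers 6 had an unadjusted limma p under 0.05, and all 8 values lay below 0 (median -0.45). Of the adipocyte markers 0 of 11 were called, 4 had such a p, and 10 values lay above 0 (median 0.54). Over all genes 3.57% were called lower and 3.01% higher, 52.93% lay below 0, and the median was -0.02. In differentiation of control cells 8 of 11 adipocyte markers rose and 6 of 8 fibroblast markers fell, where 10.1% of all genes rose and 12.8% fell. The part of cell state in the lysosomal results was not tested. At day 7 the beta-actin 3′ minus 5′ signal overlapped between groups (2.82 to 3.48 in controls, 2.70 to 3.37 in knockdown cells).

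Promoter sequence and level were set beside each other for the 38 measured members with a promoter. In differentiation of control cells the 13 with a CACGTG core had a median change of -1.02, with 11 lower and none higher. The 25 without it had a median of -0.52, with 15 lower and 2 higher, where 12.8% of all genes were lower and 10.1% higher. With knockdown at day 7 the medians were -0.22 (2 lower, Gaa among them) and -0.13 (6 lower, 1 higher), where 3.57% of all genes were lower and 3.01% higher. No test was made of these differences.

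Other genes of the pathway, from lists of 5 roles, gave no call with knockdown on either day by limma. Of 15 v-ATPase subunits, 3 had an unadjusted p under 0.05 at day 7; the largest differences were those of Atp6v0a1 (-0.36, adjusted p = 0.105) and Atp6v0a2 (0.35, adjusted p = 0.118), both parts of the membrane sector. Among 11 genes of enzyme sorting, 1 had such a p, and the largest differences were those of Sort1 (sortilin, 0.58, adjusted p = 0.290) and Igf2r (the cation-independent mannose 6-phosphate receptor, -0.27, adjusted p = 0.118). Among 13 regulators, 2 had such a p; Lamtor4, a subunit of the Ragulator complex, gave 0.56 (adjusted p = 0.0519) and Tfeb 0.48 (adjusted p = 0.332). Among 13 further hydrolases and membrane proteins, 3 had such a p, and the largest differences were those of Sgsh (heparan sulfamidase, -0.50, adjusted p = 0.115) and, not among the 3, Slc17a5 (the sialic acid exporter, -0.24, adjusted p = 0.283). Of 5 cathepsin inhibitors, 1 had such a p, and Serpinb6b gave -1.99 (adjusted p = 0.0760) and Serpinb6a -0.24 (adjusted p = 0.636). Median differences of the 5 lists at day 7 were -0.05, -0.08, -0.06, -0.10 and -0.14, in the order given.

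In differentiation of control cells the 5 lists had medians below 0, each nearer to 0 than that of the 42 members, with no test of that difference. Of the v-ATPase subunits 10 of 15 fell and none rose (median -0.28), where 12.8% of all genes fell and 10.1% rose. Of the sorting genes 5 of 11 fell and 1 rose (-0.29), and of the regulators 5 of 13 fell and none rose (-0.24). Among the further hydrolases and membrane proteins 7 of 13 fell and none rose (-0.49). Of the cathepsin inhibitors 1 fell and 1 rose, Serpinb6b (2.37, adjusted p = 0.0230). Tfeb itself gave 0.38 in control cells (adjusted p = 0.431) and rose by 0.85 in knockdown cells (adjusted p = 0.0413), while Mitf fell in both (-0.72 and -1.0045, adjusted p = 0.00804 and 0.000463).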

How the data were processed

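RNA of 3T3-L1 cells was amplified, labelled with biotin and hybridised to 14 expression arrays, per the labels' protocols. The deposited values are log2 expression levels per probe set made by the authors; the submitters' processing notes name RMA and affy, with no versions given. Values from 1.13 to 14.37 set the log base, and RMA understates changes of dim genes. Precision is limited by how many arrays there are.

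Of 45101 probe sets, 64 control probe sets were left out. The platform annotation named 34945 for 1 gene and 932 for several, and 9160 are unnamed here. Each gene was represented by its single-symbol probe set with the highest mean. A linear model with a mean per group was fitted (limma 3.58.1, R 4.3.3; functions lmFit and eBayes, 12.6 degrees of freedom). It gave 5 comparisons, each adjusted by the Benjamini-Hochberg method over 18193 genes. The script was tested on simulated data. Errors are standard errors of the fit.

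The members and lists were chosen with earlier results of these data known. Given in full are members called with knockdown, Gaa, and in each class the 3 largest knockdown differences on each day and the 2 largest changes in control differentiation, 23 members in all. From each list of other genes those called with knockdown, or otherwise the 2 largest day 7 differences, are named. Mitf and the members given only by their change were added after their values were seen.

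Same-numbered control and knockdown arrays had correlations of deviations of 0.30, 0.27 and 0.33 at day 0, and 0.55, 0.63, 0.76 and 0.20 at day 7. Same-numbered day 0 and day 7 arrays had -0.10 to 0.24. Arrays of different numbers were not compared, so these values cannot show whether the numbers in the labels pair the arrays. The main model used no pairing. Alternatives covered the choice of probe set, dim genes, scaling, variance, the replicate block and leaving out arrays. Leaving out both day 7 arrays numbered 3 was chosen after seeing the data.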

Additional observations from a re-analysis of the deposited data

Results flagged for a closer look

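Single arrays far from the rest of their group were looked for in 84 groups of 4 day 7 arrays, 1 for each of the 42 members in control and in knockdown cells. By Dixon's test 11 stood out, all in knockdown cells and none in controls. A single group stands out by chance about 1 time in 20. The members share the same arrays, so the groups are not independent and their count cannot be set against that rate. In 9 of the 11 the knockdown array numbered 3 was the highest. It read 13.30 for Ctsb (others 12.98 to 13.03), 11.59 for Ctsd (11.33 to 11.35) and 12.14 for Ctsl (10.86 to 11.06). For the glycosidases and sulfatases it read 8.87 for Naglu (others 8.18 to 8.24), 10.23 for Man2b1 (9.65 to 9.75), 11.08 for Ids (10.32 to 10.34) and 8.89 for Arsa (8.41 to 8.45). For Lipa it read 11.10 (others 10.30 to 10.41) and for Grn 11.74 (11.12 to 11.17). The remaining arrays that stood out were knockdown replicate 1 for Ctsc, at 8.75 against 9.02 to 9.08, and knockdown replicate 4 for Gm2a, at 11.23 against 10.957 to 10.998.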

How the results depend on the processing

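Counts of members called in the 5 comparisons were recomputed under each alternative. With each array left out in turn, the count at day 0 ran from 0 to 1 (0.555% to 3.47% of all genes called). At day 7 it ran from 2 to 19 (2.03% to 15.9%), and for the difference between days from 0 to 5 (0.0055% to 1.74%). In control differentiation it ran from 26 to 32 (16.5% to 23.5%), and in knockdown differentiation from 35 to 38 (30.0% to 37.9%). At day 0 the count of 1 became 2 without the dimmest 40% of genes (498 genes called in all). It was also 2 with arrays shifted to 1 median (2.84% of all genes) and with the replicate block (4.64%). The day 0 count stayed 1 but was another member with the most variable probe set (Fuca1, higher, beside 2.31% of all genes). With the mean over probe sets or only the groups compared it was Ctsh, lower (beside 1.91% and 1.14%). The day 0 count became 0 with replicates 1 and 2 averaged (0.132%). At day 7 the count of 9 became 14 without the dimmest genes (1831 genes called in all) and 15 with an intensity trend and robust variance (8.55% of all genes). It became 13 with the replicate block (14.7%), 2 with only the groups compared (1.83%) and 0 with replicates 1 and 2 averaged (0.352%). The most variable probe set gave 7 (5.73%), the mean over probe sets 6 (4.79%) and every probe set tested 6 (1564 called in all). Quantile normalizing again gave 8 (6.87%) and shifting the arrays to 1 median gave 10 (6.51%). Without both day 7 arrays numbered 3 it became 15, and 5 members were called for the difference between days. Averaging replicates 1 and 2 lowered the count in control differentiation from 31 to 15; this setting has fewer samples. The cause of the other changes was not tested.

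The replicate block changed no other call of the knockdown comparisons than those given above. In differentiation, same-numbered day 0 and day 7 arrays may not belong together. There the block left 27 members called in control and 36 in knockdown cells, beside 19.4% and 31.7% of all genes. Of 19 alternatives at day 7, the call was kept in 18 for Gaa, 15 for Ppt1, 14 for Lipa and Grn, 11 for Man2b1, 10 for Ctsf and Ctso, and 6 for Tpp1 and Gm2a. Directions that reversed were those of Idua in control differentiation, -0.86 with its most variable probe set and -0.19 averaged over probe sets, and of Arsb there, 0.0194 averaged over probe sets. Members near the bottom of the scale, such as Ctss and Cln3, limit what a fold change can show.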
